A study of Mus musculus with 34 samples.

Results

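The genes described here are 10 markers of fibroblasts, the cells that build and remodel the matrix of connective tissue: Dcn, Lum, Postn, Pdgfrb, Thy1, Fn1, Fbln2, Lox, Loxl1 and S100a4. Each was taken as the row of the deposited expression table that bears its symbol, and the 10 rows were found among 23366 symbols. The study asked whether Royalactin, the main protein of royal jelly, keeps mouse embryonic stem cells (mESCs) undifferentiated once leukaemia inhibitory factor (LIF) is taken away. Cells of the J1 line, an mESC line given at passage 40, were grown on gelatin-coated plates in serum medium without LIF (serum/-LIF, 2 libraries) or in the same medium with purified Royalactin at 0.5 mg/ml (serum/-LIF + Royalactin, 2 libraries). No serum/+LIF RNA library was analysed here, and the labels do not give the time of culture for the RNA. The study's own text gives another passage for its RNA-seq cells than the labels do, and the difference was not settled here. RNA was depleted of ribosomal RNA before sequencing. The RNA-seq libraries were 4 of the 34 samples of the series, and the other 30, which measured open chromatin by ATAC-seq, were not analysed here.

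The extracellular matrix of a fibroblast is a layered product. Fibronectin and periostin are secreted glycoproteins that bind cells and collagen, decorin and lumican are small proteoglycans that coat collagen fibrils, fibulin 2 links basement membranes to elastic fibres, and the lysyl oxidases crosslink collagen and elastin. The receptor Pdgfrb and the surface protein Thy1 are used to recognise fibroblasts and their relatives, and S100a4 (fibroblast-specific protein) is a small calcium-binding protein. Several of these genes are also used by other cells. Fibronectin is made by the early embryo and its endoderm, and Thy1 is carried by neurons and lymphocytes as well as by fibroblasts.

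The 4 libraries held between 14737796 and 17597818 reads on genes, of which the ribosomal transcript Rn45s took between 9.08% and 46.6%. Values are normalized counts, that is reads divided by a size factor for each library. A single read was worth 1.3373 and 1.0351 in serum/-LIF replicates 1 and 2, and 1.0058 and 0.6883 in serum/-LIF + Royalactin replicates 1 and 2. A count of 0 allows up to 3 reads, which is between 2.07 and 4.01 normalized counts, and this floor covers counting error only. The labels say that cells were grown in triplicate and do not say which cultures gave these libraries, so p-values measure the spread between these libraries, which may be technical.

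Markers of mESCs were all well measured, whereas genes of fibroblasts were measured in part. Of 20 further fibroblast genes 12 had enough reads to test, 6 had fewer and 2 had none, and the abundant ones included Vim and Fstl1, which many other cells also use. All 12 mESC markers were measured well enough to test, and Pou5f1, the core pluripotency factor (named with its values known), had 4996 and 5407 normalized counts in serum/-LIF and 5140 and 7453 with Royalactin. The 5 mESC markers Sox2, Zfp42, Esrrb, Klf4 and Tfcp2l1 rose with Royalactin at a limma adjusted p under 0.05, beside 0.331% of all tested genes. Of the 12, 10 had a positive log2 difference and 2 a negative one. Those 2 had the highest means: Tdgf1 (10914 and 14553 in serum/-LIF, 8696 and 9728 with Royalactin) and Lin28a (7005 and 5721, 5402 and 5707). Among genes more particular to fibroblasts, Prrx1, a transcription factor of limb and connective tissue mesenchyme, the fibroblast protease Fap and the matrix protein Dpt had no read in any library. Col1a1, the main collagen of fibroblasts, had 9 and 11 reads in serum/-LIF and 0 and 6 with Royalactin. Col3a1 had 16 and 6 reads in serum/-LIF and 0 and 5 with Royalactin, and Col1a2 had at most 10 reads in any library. These 6 genes were picked with their values known. Prrx1 came from the mesenchymal transcription factors, Fap from the mesenchymal surface markers and the others from the further fibroblast genes. Other genes of these lists were read well. Pdpn had 555 and 911 normalized counts in serum/-LIF and 260 and 433 with Royalactin, and Twist1 had 104 and 189 against 64.4 and 32.4. Cthrc1, also picked with its values known, had 321 and 588 against 190 and 127. Of the mesenchymal surface markers 6 of 10 were tested, and of the mesenchymal transcription factors 4 of 15. As these lists were read in part, the 10 genes are called markers here, and their reads are not taken as a count of fibroblasts. In bulk RNA, fewer cells of a type and less RNA per cell cannot be told apart.

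Detection split the markers into 3 sets. Postn, Pdgfrb and S100a4 had 0 reads in all 4 libraries, which is 3 of 10 markers beside 28.6% of all symbols. Lum had reads in a single library. The remaining 6 markers, Dcn, Thy1, Fn1, Fbln2, Lox and Loxl1, reached the minimum mean of 10 normalized counts over the 4 libraries that was set for testing, which 55.6% of all symbols reached. Dcn and Lox reached it only through the serum/-LIF libraries, where they were high, so they had to differ to be tested, and the counts of tested markers that lay lower support nothing about the list. The same limit holds for genes of the other lists that reached the minimum through a single group, and for counts of direction that include them. Serum/-LIF replicates 1 and 2 had reads for 6 and 7 of the 10 markers, and the Royalactin replicates for 4 and 5. In the same order, 14611, 13862, 14294 and 15170 of all 23366 symbols had a read. Exons of the 10 markers were cut into 75-base pieces, and none of these had a second match in the genome when up to 2 mismatches were allowed. A stretch of 292 bases (3.5%) of the Fn1 exons is shared with Apol7d on the opposite strand, and no other marker overlapped the exons of another gene.

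Upstream sequence is given for 3 of the 10 markers, from the RefSeq promoter table (build GRCm38.p6). Whether that table holds the other markers was not settled here. They include Pdgfrb, which also had 0 reads, so the markers at 0 are shown in part only. The upstream sequence is shown to set Postn and S100a4, both at 0 reads, beside Fbln2, which was read in every library. Each run is the 250 bases before an annotated start, 5′ to 3′ on the plus strand, with every CpG in capitals. Where a gene had several starts, the lowest on the chromosome was taken. These starts were not matched to the mm9 gene positions given below, so a window may belong to another start. The windows are chr3:54359017-54359266 for Postn, chr3:90603520-90603769 for S100a4 and chr6:91212514-91212763 for Fbln2.
Postn: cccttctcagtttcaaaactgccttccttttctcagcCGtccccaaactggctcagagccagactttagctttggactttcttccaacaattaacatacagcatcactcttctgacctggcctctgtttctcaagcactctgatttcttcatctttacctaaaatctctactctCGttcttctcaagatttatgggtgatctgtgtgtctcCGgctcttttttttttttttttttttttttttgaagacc
S100a4: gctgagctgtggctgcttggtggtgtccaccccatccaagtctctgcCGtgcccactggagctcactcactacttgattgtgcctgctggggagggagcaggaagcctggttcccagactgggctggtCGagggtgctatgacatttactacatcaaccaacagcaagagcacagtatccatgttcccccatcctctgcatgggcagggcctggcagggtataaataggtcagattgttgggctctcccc
Fbln2: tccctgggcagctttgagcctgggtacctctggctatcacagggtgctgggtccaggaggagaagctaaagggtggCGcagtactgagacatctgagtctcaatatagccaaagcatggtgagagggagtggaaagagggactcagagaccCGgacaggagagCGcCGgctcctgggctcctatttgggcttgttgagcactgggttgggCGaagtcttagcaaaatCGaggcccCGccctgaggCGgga
The window of S100a4 held 2 CpG and that of Postn 3, whereas that of Fbln2 held 8, and the median over 32851 promoters was 6. A share of 29% of these promoters held at most 2 CpG, 37.8% at most 3, and 43% at least 8. The TATA motif TATAAA, searched on both strands, was present in the S100a4 window and in neither of the others. A share of 12.4% of these promoters held it. With 3 genes these are descriptions of the windows, and no relation to expression was tested.

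**Figure D1:**
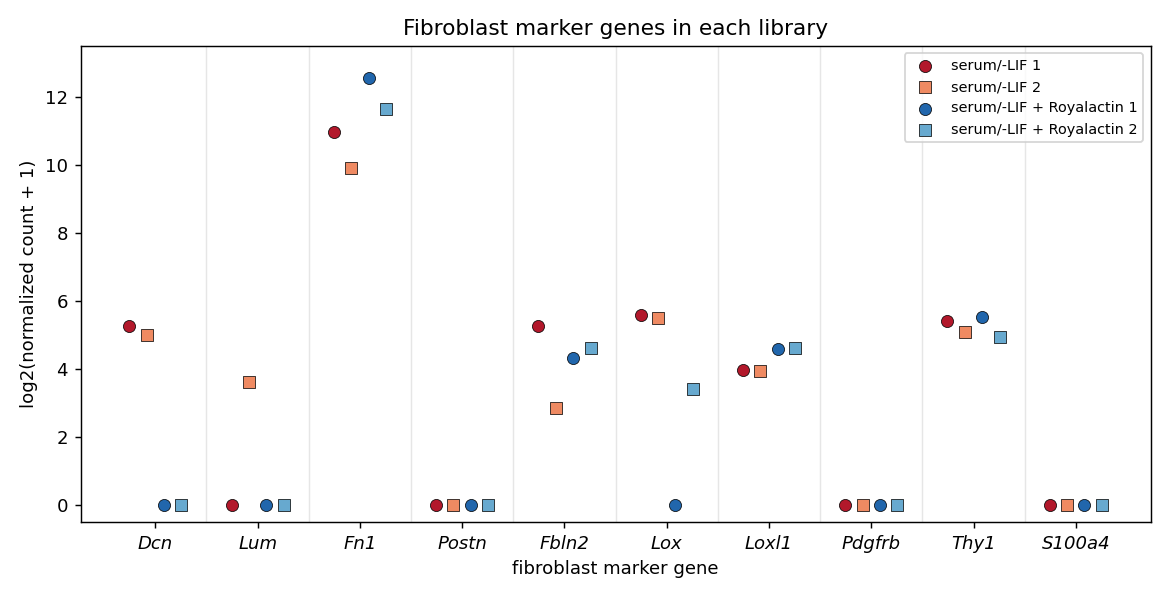
Normalized counts of the 10 fibroblast markers in each library, as log2(normalized count + 1) on the vertical axis. Points are single libraries, circles for replicate 1 and squares for replicate 2. Dcn lies at 0 in both Royalactin libraries, Lox lies lower in both, Fn1 lies higher in both, and Postn, Pdgfrb and S100a4 lie at 0 throughout.

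Among the proteoglycans, Dcn (decorin, ENSMUSG00000019929.8, build mm9, chr10:96942245-96980777, plus strand) had reads in serum/-LIF only. Its normalized counts were 37.4 and 31.1 in serum/-LIF, from 28 and 30 reads, and 0 and 0 with Royalactin. Both Royalactin libraries thus lay below both serum/-LIF libraries. The serum/-LIF mean of 34.2 was at least 11.3-fold above the floor of 3 reads in Royalactin replicate 1. At the serum/-LIF level, 34 and 49.8 reads would have fallen in the Royalactin libraries. On the log2(normalized count + 1) scale the fitted difference was -5.13 (SE 2.02, 95% interval -9.49 to -0.78), a value that depends on the pseudocount because one group is at 0. The limma p was 0.0243 and the adjusted p over all 12993 tested genes was 0.422, so the difference did not pass the test. Low counts often vanished between replicates: of genes with 10 to 30 reads in one serum/-LIF library, 21.6% had no read in the other, and at 30 to 100 reads the share was 3.06%. The same shares within the Royalactin group were 20.8% and 2.05%.

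Lum (lumican, ENSMUSG00000036446.4, chr10:97028135-97035337, plus strand) is the next gene on the same strand. Its normalized counts were 0 and 11.4 in serum/-LIF and 0 and 0 with Royalactin, all from 11 reads of 1 library. Its groups overlapped at 0 and its mean of 2.85 was below the minimum for testing. In a fit over all genes with a value above 0, its log2 difference was -1.82 (SE 1.51, adjusted p = 0.813). The cluster of proteoglycan genes continues with Kera at chr10:97069817-97076322 and Epyc at chr10:97106702-97145088, and both were at 0 in every library. Btg1, an antiproliferative gene and the nearest gene before Dcn in the table, had 326 and 476 normalized counts in serum/-LIF and 416 and 279 with Royalactin, so its groups overlapped.

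The wider family of small leucine-rich proteoglycans was mostly undetected. Of 12 further members in the table, 7 had no read in any library, among them Bgn (biglycan) and Fmod (fibromodulin). The 1 tested member was Omd (osteomodulin), with 16 and 20.7 normalized counts in serum/-LIF and 3.02 and 5.51 with Royalactin (log2 difference -1.91, adjusted p = 0.764). With a Royalactin mean of 4.26, Omd reached the minimum only through serum/-LIF. The other 4 had few reads, and Podn and Ecm2, chosen with their values known, had 29 and 27 reads in serum/-LIF replicate 2 against 0 and 4 in replicate 1. The family summed to 28.1 and 79.7 normalized counts in serum/-LIF and to 7.04 and 11 with Royalactin. The groups did not overlap, and serum/-LIF replicate 2, which alone had Lum, was the highest.

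Of the glycoproteins, Fn1 (fibronectin, ENSMUSG00000026193.8, chr1:71632094-71699774, minus strand) was by far the most abundant marker. Its normalized counts were 2007 and 954 in serum/-LIF and 6072 and 3227 with Royalactin. The means were 1481 ± 745 and 4650 ± 2012 (SD, n = 2 each), 3.14-fold higher with Royalactin. Both Royalactin libraries lay above both serum/-LIF libraries, and the lowest of them was 1.61 times the highest serum/-LIF library. The log2 difference was 1.68 (SE 0.39, 95% interval 0.83 to 2.52), with a limma p of 0.000812 and an adjusted p of 0.105, so Fn1 did not pass either. This call depends on the processing. The adjusted p was 0.0444 with a pseudocount of 5 and 0.0336 with a minimum mean of 50, and over all 12 alternatives it ranged from 3.17e-07 with a replicate block to 1 without Royalactin replicate 1.

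Replicates of Fn1 differed by 2.1-fold in serum/-LIF and by 1.88-fold with Royalactin, with replicate 1 the higher in each. Between libraries with the same number the Royalactin value was 3.03 and 3.38 times the serum/-LIF value. Replicate 1 also had the larger share of Rn45s reads in each group, 46.6% against 21.6% and 38.4% against 9.08%, and its part in the Fn1 values was not tested. The 12 parietal endoderm markers, genes of an early embryonic tissue that makes much matrix, summed to 7900 and 4125 in serum/-LIF and 7280 and 5938 with Royalactin. None of the 9 that were tested passed an adjusted p under 0.05 with limma, and 0 passed the unadjusted p of 0.05 together with 2-fold. Of these 9, 6 had a positive log2 difference, as Fn1 did, and 3 a negative one, with a median of 0.10. The transcription factor Gata4 had 28.1 and 8.28 normalized counts in serum/-LIF and 49.3 and 44.7 with Royalactin (adjusted p = 0.68), and Lamc1, a laminin chain, had 2419 and 954 against 3124 and 2322 (adjusted p = 0.547). Lamb1, another laminin chain, stood at 0.10 (adjusted p = 0.952). Col4a1, chosen with its values known, lay lower in both Royalactin libraries, with 1541 and 839 against 658 and 663 (-0.78, adjusted p = 0.506). The transcription factors Gata6 and Sox17, named as defining genes with values known, had at most 17 and 11 reads. The part of these cells in the Fn1 result was not tested.

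Receptors and assembly partners of fibronectin lay mostly on the lower side with Royalactin, without passing the test. Of 9 genes, 8 were tested, none passed the adjusted test, 6 had a negative log2 difference and 2 a positive one, and the median was -0.64. Itgb1, the beta subunit of the fibronectin receptors, had 5383 and 6855 normalized counts in serum/-LIF and 3552 and 3224 with Royalactin (log2 difference -0.84, SE 0.30, adjusted p = 0.353). Sdc4, a co-receptor for the heparin-binding region of fibronectin, had 1059 and 921 in serum/-LIF and 1180 and 1269 with Royalactin (0.31, adjusted p = 0.807). The 2 largest differences were in Itga8, an integrin alpha chain, at -3.31 (adjusted p = 0.549) and Fndc1 at -2.17 (adjusted p = 0.633), both with fewer than 90 normalized counts. These reached the minimum mean only through serum/-LIF (Royalactin means 9.98 and 6.8), so they had to lie lower to be tested. The counts of direction and the median therefore support nothing about this list.

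Postn (periostin, ENSMUSG00000027750.9, chr3:54165031-54194961) had no read in any library over 7838 bases of exon. Among 8 relatives and other matricellular genes, 4 were tested and none passed the adjusted test. Sparc, a collagen-binding glycoprotein, was the most abundant of them, with 1209 and 735 normalized counts in serum/-LIF and 755 and 805 with Royalactin (log2 difference -0.27, adjusted p = 0.852). Bmp1, the protease that trims procollagen and activates lysyl oxidase, had 103 and 70.4 in serum/-LIF and 33.2 and 16.5 with Royalactin (-1.82, adjusted p = 0.476). Thbs2, a thrombospondin, had a log2 difference of -0.65 (adjusted p = 0.895).

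Fbln2 (fibulin 2, ENSMUSG00000064080.6, chr6:91162449-91222534) had 37.4 and 6.21 normalized counts in serum/-LIF and 19.1 and 23.4 with Royalactin. The means were 21.8 ± 22.1 and 21.3 ± 3.04 (SD, n = 2 each), and both Royalactin values lay between the serum/-LIF values. The log2 difference was 0.41 (SE 1.21, 95% interval -2.19 to 3.01, adjusted p = 0.948). Among 17 other fibulins and elastic fibre genes, 12 were tested, none passed the adjusted test, and 6 lay on each side of 0 with a median of -0.01. Efemp1 (fibulin 3) had the largest log2 difference, -2.17, with 62.9 and 155 in serum/-LIF and 28.2 and 15.8 with Royalactin (adjusted p = 0.378). Efemp2 (fibulin 4), which helps lysyl oxidase act on elastin, stood at -1.70 (adjusted p = 0.696). Fbln1, another fibulin of basement membranes, had 250 and 111 in serum/-LIF and 202 and 314 with Royalactin (0.59, adjusted p = 0.766), and Ltbp4, a TGF-beta-binding matrix protein, stood at 0.15 (adjusted p = 0.951).

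The crosslinking enzymes differed in direction. Lox (lysyl oxidase) had 46.8 and 44.5 normalized counts in serum/-LIF, from 35 and 43 reads, and 0 and 9.64 with Royalactin, from 0 and 14 reads. The means were 45.7 ± 1.63 and 4.82 ± 6.81 (SD, n = 2 each), 9.48-fold lower with Royalactin, and the groups did not overlap. At the serum/-LIF level 45.4 and 66.3 reads would have been seen. The log2 difference was -3.84 (SE 1.54, 95% interval -7.14 to -0.53), with a limma p of 0.026 and an adjusted p of 0.432. Without either serum/-LIF library, or without Royalactin replicate 1, the unadjusted p of Lox was 0.0809, 0.0771 and 0.115.

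Loxl1, a lysyl oxidase of elastic fibres (ENSMUSG00000032334.8, chr9:58135530-58161019, minus strand), had 14.7 and 14.5 normalized counts in serum/-LIF and 23.1 and 23.4 with Royalactin. The means were 14.6 ± 0.155 and 23.3 ± 0.19 (SD, n = 2 each), 1.59-fold higher, and the groups did not overlap. These values came from 11, 14, 23 and 34 reads. The log2 difference was 0.64 (SE 1.11, 95% interval -1.75 to 3.02, adjusted p = 0.902). Of the 3 remaining family members, 2 were tested. Loxl2, which oxidises collagen IV, was the most abundant, with 808 and 938 in serum/-LIF and 450 and 483 with Royalactin (log2 difference -0.90, SE 0.32, adjusted p = 0.359), and Loxl4 stood at -0.52 (adjusted p = 0.928).

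**Figure D2:**
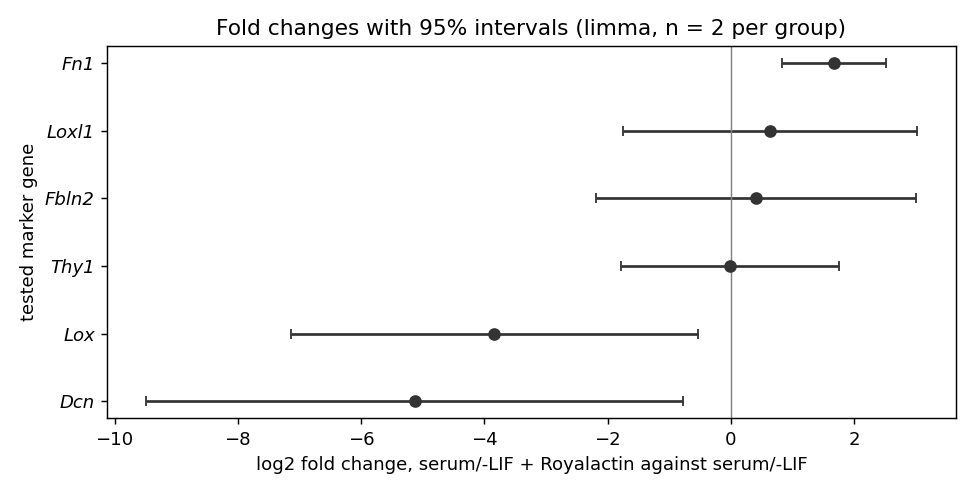
Log2 fold changes of the 6 tested markers, serum/-LIF + Royalactin against serum/-LIF, with 95% intervals from limma (n = 2 per group). The intervals of Dcn, Lox and Fn1 leave out 0 before adjustment, and the other 3 cross it.

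Of the surface proteins, Pdgfrb, the receptor for PDGF-B and PDGF-D, had no read in any library over 5478 bases of exon. Its ligands were read: Pdgfb had 73.6 and 37.3 normalized counts in serum/-LIF and 6.04 and 11.7 with Royalactin (log2 difference -2.50, adjusted p = 0.476). Pdgfd had 86.9 and 40.4 in serum/-LIF and 7.04 and 15.1 with Royalactin (-2.40, adjusted p = 0.459). Both genes lay lower in both Royalactin libraries, and Pdgfb (Royalactin mean 8.87) reached the minimum for testing only through serum/-LIF. Pdgfc, a ligand of the alpha receptor, lay higher, with 118 and 117 in serum/-LIF and 210 and 301 with Royalactin (1.09, adjusted p = 0.458). Pdgfa, the other alpha receptor ligand, stood at 0.39 (adjusted p = 0.887). All 5 PDGF genes other than Pdgfrb were tested and none passed the adjusted test, with a median of 0.39.

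Thy1 (ENSMUSG00000032011.4, chr9:43851467-43856662) had 41.5 and 33.1 normalized counts in serum/-LIF and 45.3 and 29.6 with Royalactin. The means were 37.3 ± 5.89 and 37.4 ± 11.1 (SD, n = 2 each), and the serum/-LIF values lay between the Royalactin values. The log2 difference was -0.02 (SE 0.82, 95% interval -1.78 to 1.75, adjusted p = 0.998), and differences within that interval are not excluded by these libraries. Among 10 other mesenchymal surface markers 6 were tested, none passed the adjusted test, and 5 of the 6 had a negative log2 difference (median -0.81). That count supports nothing about the list, which was chosen with earlier results of these data known. Pdpn (podoplanin) had 555 and 911 in serum/-LIF and 260 and 433 with Royalactin (-1.08, adjusted p = 0.367). Cd34 stood at -1.88 (adjusted p = 0.611) and Eng, a TGF-beta co-receptor, at 0.48 (adjusted p = 0.829).

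S100a4 (ENSMUSG00000001020.7, chr3:90407692-90409967) had no read in any library, over a short exon length of 587 bases. Of 14 other S100 genes, 7 were also at 0 throughout, 6 were tested and none passed the adjusted test (median -0.60). S100a10, the annexin A2 partner, was the most abundant, with 647 and 1880 normalized counts in serum/-LIF and 471 and 524 with Royalactin (-1.15, adjusted p = 0.389). S100a11 stood at 0.13 (adjusted p = 0.969), S100a1 at -2.13 (adjusted p = 0.796) and S100a13 at 2.04 (adjusted p = 0.812).

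Levels can be set side by side per kilobase of exon. In serum/-LIF the order of normalized counts per kilobase was Fn1 (241 and 114), Thy1 (23.9 and 19.1), Dcn (19.3 and 16), Lox (9.97 and 9.48), Fbln2 (6.37 and 1.06), Loxl1 (4.41 and 4.34) and Lum (0 and 5.49). Thy1 and Dcn overlapped, as did Fbln2 with Loxl1 and Loxl1 with Lum, whereas Fn1 stood clear of Thy1 and Dcn of Lox. With Royalactin the order was Fn1 (728 and 387), Thy1 (26.1 and 17.1), Loxl1 (6.93 and 7.01), Fbln2 (3.25 and 3.98) and Lox (0 and 2.05), with no overlap between neighbours, and the other 5 were at 0. Fn1 was above 95.4% of tested genes in mean normalized count, a scale that is not per length.

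Because Fn1 was so abundant, the summed level of the 10 markers followed it. The sum was 2185 and 1095 normalized counts in serum/-LIF and 6160 and 3313 with Royalactin, and Fn1 made up 91.9% and 87.1% of it in serum/-LIF and 98.6% and 97.4% with Royalactin. Without Fn1 the order turned, with 178 and 141 in serum/-LIF and 87.5 and 86 with Royalactin. Without Fn1 and Thy1 the sums were 136 and 108 against 42.2 and 56.4. Leaving out Fn1, which lay higher with Royalactin, and Thy1, with means of 37.3 and 37.4, leans the remaining sums towards the genes that lay lower. Neither group overlapped the other in any of these 3 sums. The sum without Fn1 rested on 133, 136, 87 and 125 reads in the 4 libraries, and the differences of Dcn and Lox between group means were the largest in it.

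**Figure D3:**
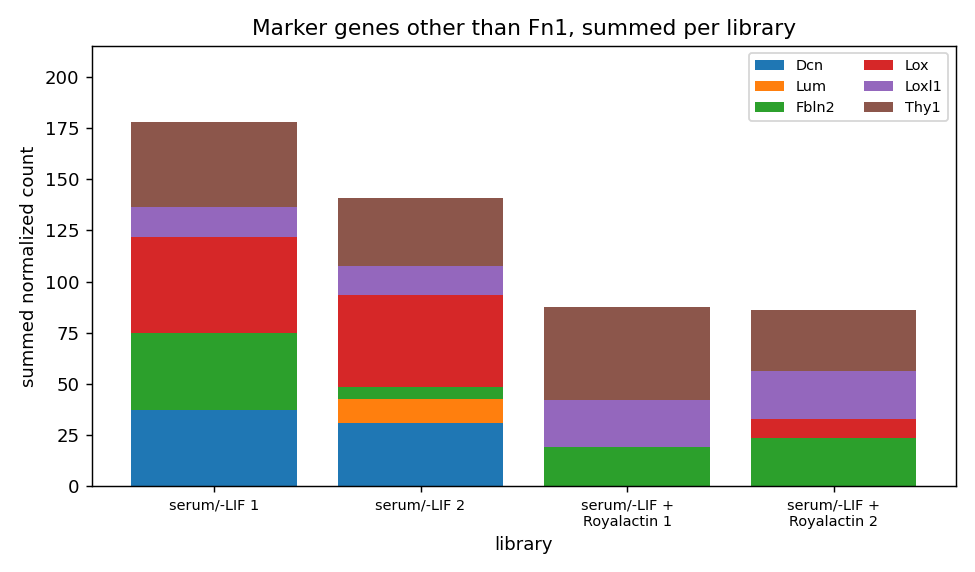
Summed normalized count of the markers other than Fn1 in each library, stacked by gene (Postn, Pdgfrb and S100a4 are at 0 and add nothing). The serum/-LIF bars reach 178 and 141 and the Royalactin bars 87.5 and 86, with Dcn present in the serum/-LIF bars only.

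No marker passed an adjusted p under 0.05 by limma, beside 0.162% of tested genes called lower and 0.331% called higher. In the same fit 3 of the 6 tested markers had an unadjusted p under 0.05, beside 1214 of all 12993 tested genes. At the thresholds of the study's selection, an unadjusted p of 0.05 with 2-fold, here applied to the limma fit rather than to a count model, Dcn and Lox were selected as lower beside 3.61% of tested genes, and Fn1 as higher beside 3.52%. Both Royalactin libraries lay below both serum/-LIF libraries in 2 of the 6 (Dcn and Lox), where 18.9% of tested genes did so. They lay above in 2 of the 6 (Fn1 and Loxl1), where 19.7% did. The group mean was at least 2-fold lower in 2 markers beside 10.1% of tested genes, and at least 2-fold higher in 1 beside 7.5%. The log2 difference was negative in 3 tested markers and positive in 3. Their median was 0.20, also with Dcn at its bound of -3.50, which by its rank cannot move it, beside -0.00764 over all tested genes. As a list the tested markers thus lay on both sides of 0.

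Further fibroblast genes that were tested lay mostly on the lower side, and none passed the adjusted test. Of 20 further fibroblast genes 12 were tested, 10 had a negative log2 difference with Royalactin and 2 a positive one, with a median of -0.81, whereas 6579 of all 12993 tested genes had a negative one. Col6a2, a collagen VI chain, stood at -2.84 (adjusted p = 0.664) and Gas1, a growth-arrest protein of the cell surface, at -1.67 (adjusted p = 0.514). With a Royalactin mean of 6.54, Col6a2 reached the minimum only through serum/-LIF, so it had to lie lower to be tested. The list was also chosen with earlier results of these data known. Its counts of direction and its median therefore support nothing about fibroblast genes. Vim (vimentin, the mesenchymal intermediate filament) had 1218 and 1150 normalized counts in serum/-LIF and 1019 and 896 with Royalactin (-0.31, adjusted p = 0.807). Fstl1, a secreted glycoprotein, lay higher in both Royalactin libraries, with 999 and 1088 in serum/-LIF and 1445 and 1356 with Royalactin (0.43, adjusted p = 0.713). Among mesenchymal transcription factors 15 were in the data, of which 4 were tested, none passed the adjusted test and 5 were at 0 throughout. Twist1 had 104 and 189 in serum/-LIF and 64.4 and 32.4 with Royalactin (-1.60, adjusted p = 0.428), and Zeb1 had 62.9 and 7.25 in serum/-LIF and 180 and 184 with Royalactin (adjusted p = 0.2).

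Cells other than fibroblasts can carry these markers, and their own genes were read beside them. Some smooth muscle markers were lower with Royalactin, as Dcn and Lox were: Tagln (transgelin) had 1896 and 2524 normalized counts in serum/-LIF and 135 and 240 with Royalactin (-3.60, adjusted p = 0.00184). Cnn1 (calponin) had 473 and 526 in serum/-LIF and 66.4 and 110 with Royalactin (-2.53, adjusted p = 0.021). These 2 of 6 tested smooth muscle genes fell at an adjusted p under 0.05, beside 0.162% of all tested genes. Acta2, an actin of smooth muscle, had 128 and 50.7 in serum/-LIF and 9.05 and 9.64 with Royalactin (-2.98, adjusted p = 0.274). With a Royalactin mean of 9.34 it reached the minimum only through serum/-LIF, so it had to lie lower to be tested. In all, 5 of the 6 had a negative log2 difference, a count that supports nothing about the list. Smtn overlapped between groups. Lmod1 stood at 1.88 (adjusted p = 0.831) and reached the minimum only through Royalactin (serum/-LIF mean 6.02). The 7 listed genes summed to 3091 and 3486 in serum/-LIF and 477 and 576 with Royalactin, and Myh11, which defines mature smooth muscle, had a mean below the minimum. Their part in the Dcn and Lox values was not tested. None of the tested pericyte (4), endothelial (4), neuron (8), visceral endoderm (5) or haematopoietic (2) genes passed the adjusted test. Pericyte markers, of which Rgs5 and Kcnj8 were at 0 as Pdgfrb was, summed to 1989 and 1170 in serum/-LIF and 1205 and 1010 with Royalactin. Neuron markers, which bear on Thy1, summed to 1424 and 1821 in serum/-LIF and 1861 and 2285 with Royalactin. Most of that sum was Stmn2 and Tubb3. Of the 8 tested neuron genes, 5 had a negative log2 difference and 3 a positive one (median -0.69). The largest differences were in Syt1, with 44.1 and 33.1 in serum/-LIF and 0 and 0 with Royalactin (-5.29, adjusted p = 0.389), and Dcx. Dcx had 6.69 and 44.5 against 0 and 0 (-4.23, adjusted p = 0.645). Both were read in serum/-LIF only, as Dcn was, so they had to lie lower to be tested. The neuron counts of direction and median therefore support nothing about the list. Endothelial markers summed to 377 and 209 against 900 and 892, mostly Pecam1 (221 and 138 against 638 and 584). All 4 tested endothelial genes had a positive log2 difference, beside 6414 of all 12993 tested genes. Kdr and Cldn5 (serum/-LIF means 0.669 and 1.04) reached the minimum only through Royalactin, so they had to lie higher to be tested. That count of direction therefore supports nothing about the endothelial list. Of the endothelial genes below the minimum, Cdh5 and Tie1 had lower means with Royalactin, Esam a higher one and Emcn no read. Visceral endoderm markers summed to 2566 and 2292 against 2634 and 3093, and haematopoietic markers to 77.6 and 35.2 against 121 and 102.

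**Figure D4:**
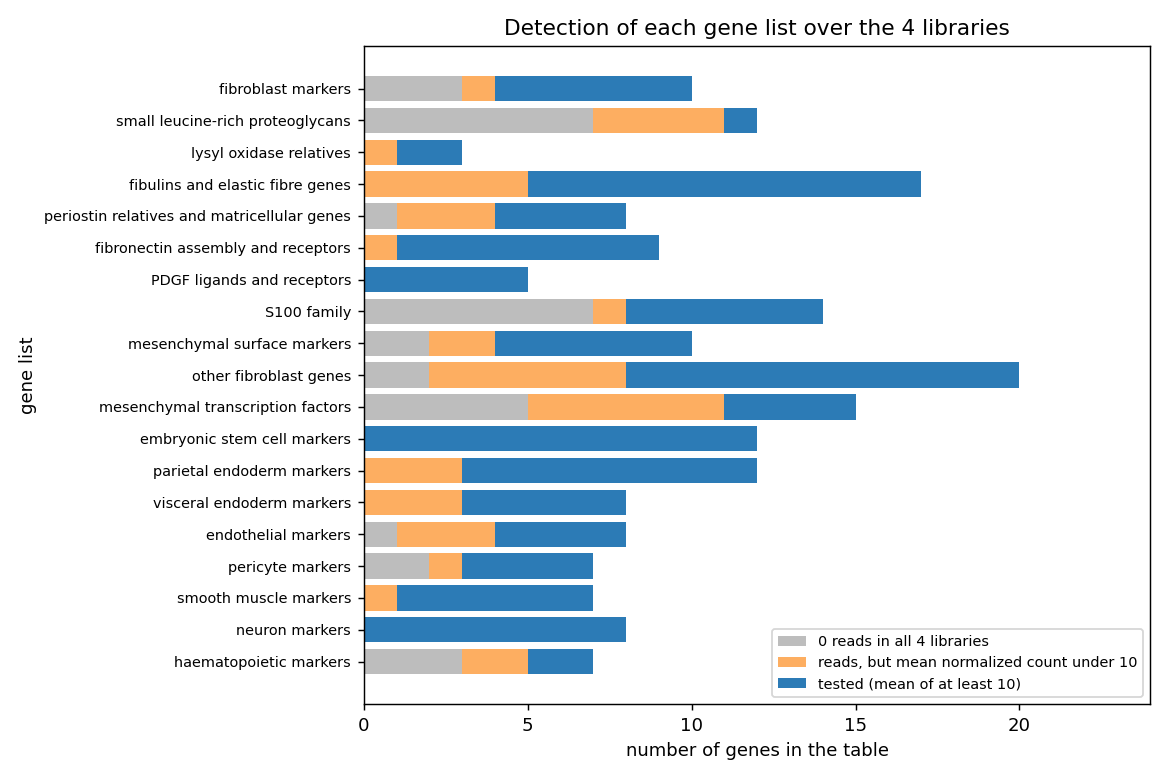
Number of genes of each list with 0 reads in all 4 libraries, with reads but a mean normalized count under 10, or tested. Of the fibroblast markers 3 are at 0, 1 is below the minimum and 6 are tested, whereas all 12 mESC markers are tested.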

How the data were processed

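RNA-seq reads of 4 libraries were aligned by the authors to mm9 with TopHat and counted per gene with HTSeq-count. The deposited signal values are counts that the authors normalized with DESeq. Annotation and strand setting are not given in the sources used here. All values were whole multiples of 1 read (tolerance 0.01), which gave the reads printed. As the step of 1 library is close to 1, no count model was run.

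Normalized counts were compared with limma 3.58.1 (R 4.3.3) on log2(value + 1), with the variance trend and Benjamini-Hochberg adjustment, over the 12993 genes whose mean reached 10. For low genes a fold change on this scale depends on the pseudocount and can differ from the ratio of means. The fit was tested on simulated data. Alternatives were the pseudocount, the minimum mean, the scaling, the variance trend, a replicate block and leaving out each library. Exon lengths and positions came from GENCODE (mm9), exon pieces were matched with minimap2 2.31-r1302, and promoters came from RefSeq (GRCm38.p6). Dates stood in place of 27 symbols.

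All 10 markers are named. Of each other list, genes with an adjusted p under 0.05, the 2 largest differences and the 2 highest means among tested genes are named where relevant, and others are said to be chosen with values known or are named as defining genes at or near 0. Markers and lists were chosen with earlier results of these data known.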

Additional observations from a re-analysis of the deposited data

How the results depend on the processing

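The number of markers past an adjusted p of 0.05 was 0 in the reported fit and 1, Fn1, with a pseudocount of 5, with a minimum mean of 50 and with a replicate block. With the minimum of 50 only Fn1 was tested, so the number selected at p 0.05 and 2-fold went from 3 to 1, those below without overlap and those at least 2-fold lower from 2 to 0, and the median from 0.20 to 1.68. Leaving out each library gave 1 to 3 selected markers and medians from -0.48 to 0.39. The 1 was Dcn, without Royalactin replicate 1, and the -0.48 came without serum/-LIF replicate 2. A median without Fn1, added once the data had been seen, was -0.02. In these fits a lone library is assumed to vary like the others. Thy1 (-0.31 to 0.28 over the libraries left out) turned to 0.04 with scaling to the total without Rn45s, to 0.14 without serum/-LIF replicate 1 and to 0.28 without Royalactin replicate 2. Fbln2 (-0.80 to 1.62) turned to -0.80 without serum/-LIF replicate 2. With a pseudocount of 0.1 the unadjusted p of Dcn was 0.0585. The causes were not tested. Dcn and Lox stayed negative and Fn1 and Loxl1 positive in every alternative in which they were tested.

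Deviations of same-numbered libraries were little correlated over all tested genes (r = 0.0851). With 2 libraries per group this cannot decide whether the numbers pair the samples, and pairing was left out of the reported fit. With the replicate block the adjusted p of Fn1 was 3.17e-07 and 391 genes passed instead of 64. Over all genes, 32 passed with a pseudocount of 0.1, 99 with a mean of at least 50 and 34 without a minimum. None passed without the variance trend (1135 at an unadjusted p under 0.05) or with any library left out (428 to 2496). Of the 64, 43 were higher and 21 lower, against 34 and 12 with upper-quartile scaling and 35 and 11 with the total without Rn45s. With a library left out, the genes selected at p 0.05 and 2-fold ranged from 427 to 1925 instead of 927, and those below without overlap from 4014 to 5132 instead of 2452, since fewer libraries are compared. Genes at least 2-fold lower in mean numbered 584 with a mean of at least 50 and 2423 without a minimum, instead of 1311.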

Other observations

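The tested genes whose centred profile over the 4 libraries lay nearest to the median profile of the tested markers were Med26 (Euclidean distance 0.296 on the log2 scale), Epb4.1l5 (0.298) and Fto (0.3). Med26 had 239 and 131 normalized counts in serum/-LIF and 178 and 171 with Royalactin, so its groups overlapped. With 4 libraries and markers of opposite direction, this median profile resembles no single marker.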
